A study of Mus musculus with 4 samples.

Results

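The genes described here are 39 protein factors that make ribosomes, together with Rn45s, the row of the table that stands for the ribosomal RNA (rRNA) precursor. They were picked by gene name, with no threshold on a measured value, but with earlier results of these data known. They make up 40 of the 24497 mouse rows in the table. All 40 passed the filter on low values that left 11919 genes to test. RNA came from mouse acute myeloid leukaemia cells carrying NRAS and AE9a, the latter a shortened form of the AML1-ETO fusion protein. In the WT group (2 libraries) the bone marrow stem cells that received these oncogenes came from wild-type mice, and in the Tet2 KO group (2 libraries) from Tet2-/- mice. What both groups share is the pair of oncogenes, culture with SCF, IL-3 and IL-6 under G418 and puromycin, transplantation into CD45.1+ recipients aged 6 to 8 weeks after 900 cGy of irradiation, and enrichment of CD45.2 donor cells from the spleen. The labels do not say how many clones or mice stand behind a group, nor whether animals were pooled, and a p-value here covers the spread among these libraries alone, part of which may be technical.

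Ribosomes are built in the nucleolus. RNA polymerase I (Pol I) copies the repeated rDNA genes into a long precursor, which small nucleolar ribonucleoproteins (snoRNPs) modify while large assemblies of proteins fold it and cut it into the rRNAs of the small and large subunits. The genes for these factors are classic targets of the transcription factor Myc, and their output is generally high in growing leukaemic cells and is turned down as granulocytes mature.

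Values are TPM, a transcript abundance in which each library is scaled to the same total and each gene to its length. Estimated depth was 19.9 to 25.1 M reads. Between the WT libraries the differences were near read-sampling noise, so these were averaged to 1 sample (n = 1), whereas Tet2 KO values are means ± SD of 2 libraries (n = 2). Changes are log2 differences of TPM + 1, Tet2 KO minus WT, ± the standard error from limma. "Rose" and "fell" mean a Benjamini-Hochberg adjusted p under 0.05 over all tested genes. Such falls made up 26.7% of all tested genes and such rises 22.1%.

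Several other measures moved with the labels. ERCC spike-ins, RNAs added in a known amount, held 4.62% to 4.66% of TPM in WT and 2.95% to 3.19% in Tet2 KO, so scaling to ERCC instead of the library total moved the median change of all tested genes from -0.12 to 0.43. Each group of factors is therefore given on both scales. Of 10 neutrophil genes, for granule and other proteins, 9 rose, beside 22.1% of all tested genes. Their summed level went from 1537 and 1571 TPM in WT to 96829 and 76252 TPM in Tet2 KO. Most of the Tet2 KO sum came from S100a8 (35305 and 27010 TPM) and S100a9 (38264 and 33970 TPM). Of 10 markers of myeloid and leukaemic cells 6 rose (Itgam, Cebpa, Lyz2, Mpo, Elane and Kit) and 2 fell (Csf1r and Cd34). Csf1r went from 721 and 730 TPM in WT to 170 and 142 TPM in Tet2 KO, and Cd34 from 60.6 and 60.7 TPM to 14.7 and 15.8 TPM. Mpo went from 11.8 and 10.8 TPM to 203 and 253 TPM. Ptprc, which encodes CD45, and the myeloid factor Spi1 did not pass and were well expressed in every library (at least 292 TPM). The progenitor receptor Kit was at or under 2.20 TPM. The 5 T cell markers summed to at most 5.33 TPM and the 5 B cell markers to at most 9.31 TPM, with Pax5 listed at 0 in both Tet2 KO libraries; of the 2 tested in each list 0 T cell markers passed, and 1 B cell marker rose and 1 fell. The 6 erythroid markers summed to 2.37 to 5.56 TPM in 3 libraries and to 43.4 TPM in Tet2 KO library 2, with Hbb-bs listed at 0 in all; 1 of 2 tested rose. The part of these differences in the results below was not tested. In bulk RNA, fewer cells of a type and less RNA per cell cannot be told apart. The targeted gene, Tet2, read 43.5 and 43.7 TPM in WT versus 63.7 and 68.1 TPM where the label says Tet2 KO, higher rather than lower; a whole-gene value does not test for a deleted exon. All directions rest on the labels.

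Rn45s fell. On the log2(TPM + 1) scale none of the 39 factors had a change as large, although by the ratio of mean TPM Polr1e differed more (4.62-fold). Among all 11919 tested genes Rn45s ranked 566 from the lowest change. Its WT levels were 9227 and 8942 TPM, and its Tet2 KO levels 1342 and 2984 TPM. The groups did not overlap, but the Tet2 KO libraries lay far apart from each other, by 2.22-fold, against 1.03-fold between the WT libraries. The WT mean was 4.2-fold above the Tet2 KO mean of 2163 ± 1161 TPM, a change of -2.18 ± 0.48 (limma adjusted p = 0.00657). Against each Tet2 KO library alone, the WT mean was 6.77-fold and 3.04-fold higher. With ERCC scaling the change was -1.58 (adjusted p = 0.0337). Without the filter on low values the change no longer passed (adjusted p = 0.271), and over the 14 alternative settings adjusted p ranged from 1.29e-06 to 0.271. Expressed per unit of ERCC RNA, Rn45s came to 0.198 and 0.193 in WT and to 0.0454 and 0.0936 in Tet2 KO.

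**Figure D1:**
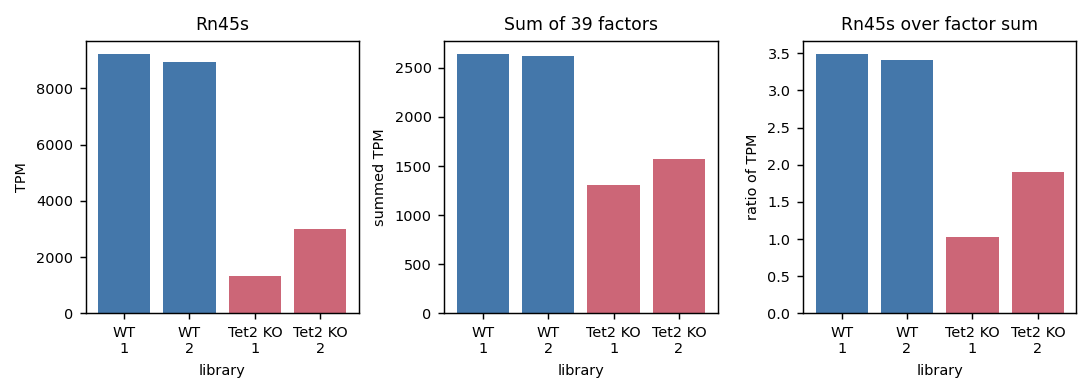
Bars give, for each of the 4 libraries (WT in blue, Tet2 KO in red), the TPM of Rn45s, the summed TPM of the 39 factors and the ratio of the first to the second. Both levels are lower in the Tet2 KO libraries, and the ratio drops from 3.49 and 3.41 to 1.03 and 1.90, with the second Tet2 KO library between the first and WT in all 3 panels.

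Rn45s RNA has no poly(A) tail, and the libraries were made with a kit for mRNA, which captures tails. How much untailed RNA each library took up was not measured. A fixed list of other RNAs without a tail was read beside it. Rpph1, the RNA of the tRNA-trimming enzyme RNase P, was at 14.5 and 10.4 TPM in WT versus 10.6 and 22.4 TPM in Tet2 KO. Rmrp, the RNA of a related enzyme that cuts the rRNA precursor, was at 8.42 and 4.40 TPM in WT versus 3.54 and 8.99 TPM in Tet2 KO. For both the groups overlapped, while Tet2 KO library 2 was above library 1, as for Rn45s (2.10-fold and 2.54-fold against 2.22-fold). Of the 5 RNAs of the list that could be tested (Rpph1, Rmrp, Rnu11, Scarna2 and Scarna10), 0 passed limma's test and 0 had an unadjusted p under 0.05, while with ERCC scaling Scarna2 passed as higher (adjusted p = 0.0258). Their levels, at or under 22.4 TPM, give little precision. Mir6236, named as a microRNA gene, lies outside the list and was added after its values were seen. Its row was abundant and had the pattern of Rn45s. WT levels were 2334 and 2121 TPM and Tet2 KO levels 391 and 936 TPM. The change of -1.88 ± 0.64 did not pass (limma unadjusted p = 0.0518, adjusted p = 0.0939, or 0.0170 with both WT libraries as samples). Whether this row collects rRNA reads was not tested, so it may not count as an RNA separate from Rn45s.

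Most of the factors were lower in Tet2 KO. Of the 39, 26 fell, 2 rose (Ubtf and Rrp1b) and 11 did not pass, beside the 26.7% and 22.1% of all tested genes. In 35 of 39 both Tet2 KO libraries lay below both WT libraries, beside 48.7% of all tested genes. Because the list was chosen with earlier results of these data known, setting it beside these shares is no independent test. Their summed level was 2642 and 2621 TPM in WT versus 1307 and 1574 TPM in Tet2 KO, a 1.83-fold difference of the group means, or 1.65-fold without Npm1, the most abundant factor. The median change was -0.66, against -0.12 over all tested genes. With ERCC scaling 9 factors fell and 4 rose, beside 12.5% and 41.5% of all tested genes, and the factors' median was -0.07 against 0.43. ERCC scaling multiplies all genes of a library by the same constant. The distance of the factors below the median of all genes (-0.54 and -0.51) could therefore hardly differ between the scales, and its similarity is no separate result. The number called lower depended on the scale. The 9 that fell on both scales were Polr1e, Npm1, Mybbp1a, Fbl, Utp20, Wdr43, Wdr75, Tsr1 and Nop16. The 4 that rose with ERCC scaling were Ubtf, Taf1c, Rrp12 and Rrp1b. With both WT libraries entered as samples, 33 of the 40 members fell and 2 rose, beside 37.9% and 29.5% of all tested genes. Without the filter on low values 1 factor, Polr1e, was called.

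**Figure D2:**
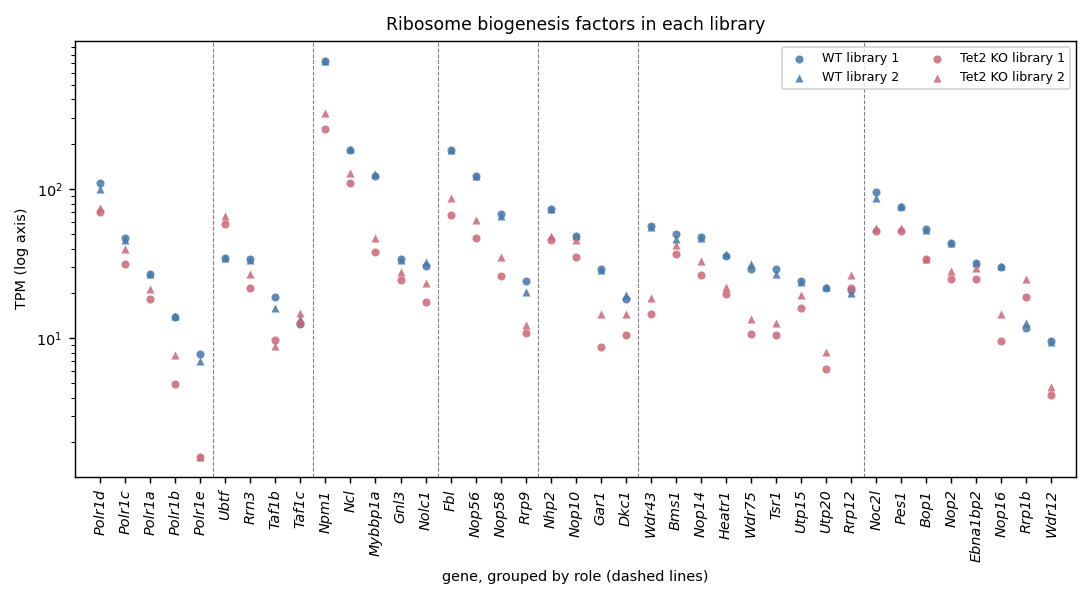
TPM of each of the 39 factors in each library on a log axis, grouped by role in the order Pol I subunits, Pol I initiation factors, nucleolar chaperones and regulators, box C/D snoRNP, box H/ACA snoRNP, small subunit assembly and large subunit assembly. WT points (blue) nearly coincide and lie above the Tet2 KO points (red) in 35 genes; Ubtf, Rrp1b and Rrp12 show the opposite order, and the Taf1c points overlap.

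Among the subunits of Pol I, 3 of 5 fell and 0 rose, beside 26.7% and 22.1% of all tested genes. Polr1e, a subunit of the module that helps the enzyme start and elongate, stood at 7.84 and 6.99 TPM in WT versus 1.60 and 1.61 TPM in Tet2 KO. The WT level was 4.62-fold higher, a change of -1.69 ± 0.30 (limma adjusted p = 0.000205), or -1.25 with ERCC scaling. It was the only member called under all 14 alternative settings. Polr1b, the second largest subunit of the catalytic core, went from 13.9 and 14.2 TPM to 4.96 and 7.68 TPM (-1.06 ± 0.32, adjusted p = 0.0118), a call lost with ERCC scaling and with quantile normalization. Polr1d, which Pol I shares with RNA polymerase III, went from 110 and 101 TPM to 70.0 and 74.6 TPM (-0.54 ± 0.19), but was at 0.05 with ERCC scaling. The largest subunit, Polr1a, and the shared subunit Polr1c did not pass, with changes of -0.42 ± 0.23 and -0.38 ± 0.21. With ERCC scaling these were 0.16 and 0.20. For all 5 subunits both Tet2 KO libraries lay below both WT libraries, beside 48.7% of all tested genes. Summed TPM of the subunits was 205 and 195 in WT and 127 and 145 in Tet2 KO. Rn45s stood at 44.9 and 45.9 times that sum in WT and at 10.6 and 20.6 times in Tet2 KO.

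The factors that bring Pol I to its promoter did not move together. Ubtf, an HMG-box protein that coats active rDNA, rose. It stood at 34.6 and 34.8 TPM in WT versus 58.4 and 66.1 TPM in Tet2 KO, 1.79-fold higher and without overlap (0.82 ± 0.19, limma adjusted p = 0.00224; 1.41 with ERCC scaling). Its call was lost without the filter on low values. Taf1b, a subunit of the promoter selectivity factor SL1, fell from 18.8 and 16.0 TPM to 9.81 and 8.81 TPM (-0.84 ± 0.28, adjusted p = 0.0198), a call that ERCC scaling and quantile normalization ended. Taf1c, another SL1 subunit, overlapped between groups, at 12.4 and 13.5 TPM in WT versus 12.6 and 14.8 TPM in Tet2 KO. With ERCC scaling it passed as higher (0.63, limma adjusted p = 0.0392). Rrn3, which links Pol I to SL1 and is the growth-regulated initiation factor, was at 34.0 and 33.6 TPM in WT versus 21.8 and 26.8 TPM in Tet2 KO. It did not pass (-0.46 ± 0.23, limma adjusted p = 0.101), nor with ERCC scaling (0.11).

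Nucleolar chaperones and regulators fell in 4 of 5 cases and rose in 0, beside 26.7% and 22.1% of all tested genes. Npm1, nucleophosmin, a carrier and chaperone of ribosomal and histone proteins, was the factor with the highest level in every library. It stood at 729 and 730 TPM in WT versus 254 and 322 TPM in Tet2 KO, 2.53-fold lower (-1.35 ± 0.25, limma adjusted p = 0.000332; -0.75 with ERCC scaling). Processed copies of Npm1 in the genome make its exact level uncertain. Mybbp1a, a Myb-binding nucleolar protein, showed the smallest p of the 40. Its level went from 123 and 127 TPM to 37.7 and 47.0 TPM, 2.95-fold lower (-1.55 ± 0.20, adjusted p = 1.04e-05; -0.96 with ERCC scaling). Ncl, nucleolin, which binds the growing precursor, went from 185 and 186 TPM to 109 and 129 TPM (-0.64 ± 0.21). Nolc1, a chaperone of snoRNPs, went from 30.4 and 32.5 TPM to 17.5 and 23.5 TPM and passed narrowly (-0.61 ± 0.24, adjusted p = 0.0496). Neither Ncl nor Nolc1 passed with ERCC scaling (-0.05 and -0.04), quantile normalization, median centring or without trend and robust estimation, and Nolc1 also did not without WT library 2. Gnl3, the GTPase nucleostemin, did not pass (-0.36 ± 0.22, or 0.22 with ERCC scaling).

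The box C/D snoRNP was the group of the list in which every member fell, 4 of 4. Among all tested genes 26.7% fell. Its median change was -1.15, or -0.56 with ERCC scaling. These particles place methyl groups on rRNA. Fbl, fibrillarin, the methyltransferase itself, stood at 183.2 and 183.2 TPM in WT versus 67.1 and 87.2 TPM in Tet2 KO (-1.25 ± 0.21, limma adjusted p = 0.000198). Its scaffold partners moved by nearly the same amount. Nop56 went from 121.9 and 121.8 TPM to 46.8 and 62.3 TPM (-1.16 ± 0.21), and Nop58 from 68.7 and 66.4 TPM to 26.1 and 35.0 TPM (-1.13 ± 0.22). Rrp9, which belongs to the U3 particle that guides the first cuts of the precursor, went from 24.2 and 20.5 TPM to 10.9 and 12.4 TPM (-0.89 ± 0.26). With ERCC scaling Fbl still fell (-0.66, adjusted p = 0.0360), while Nop56 (adjusted p = 0.0518), Nop58 (adjusted p = 0.0531) and Rrp9 (adjusted p = 0.191) did not. Nhp2l1, a further core protein outside the members, fell less, from 104.0 and 100.9 TPM to 64.7 and 79.4 TPM. Its change was -0.51 ± 0.20 (limma adjusted p = 0.0463), but 0.08 with ERCC scaling, where it did not pass.

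In the box H/ACA snoRNP, which converts uridine to pseudouridine and whose proteins also serve telomerase, 2 of 4 fell. The share of all tested genes was 26.7%. Gar1 stood at 29.0 and 28.6 TPM in WT versus 8.78 and 14.5 TPM in Tet2 KO, 2.47-fold lower (-1.27 ± 0.30, limma adjusted p = 0.00371). Nhp2 went from 73.8 and 73.5 TPM to 45.4 and 48.3 TPM (-0.64 ± 0.19). The pseudouridine synthase Dkc1 was at 18.3 and 19.5 TPM in WT versus 10.5 and 14.5 TPM in Tet2 KO but did not pass (-0.57 ± 0.28, adjusted p = 0.0996). Nop10, the smallest protein of the core, was at 48.3 and 48.8 TPM against 35.2 and 45.6 TPM (-0.27 ± 0.21). With ERCC scaling 0 of 4 passed in either direction; Gar1 was then at -0.71 (adjusted p = 0.0752).

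Of 9 proteins that assemble the small subunit, 6 fell and 0 rose, beside 26.7% and 22.1% of all tested genes. The UtpA subcomplex, which binds the precursor first as it is made, contributed 4 of the 9, with changes from -1.72 to -0.43. Cirh1a, a UtpA protein outside the members, overlapped between groups, at 35.73 and 34.33 TPM in WT versus 33.05 and 37.31 TPM in Tet2 KO. Its change was 0.003 ± 0.21, and with ERCC scaling it passed as higher (0.58, limma adjusted p = 0.0250). Nol11, a further UtpA protein outside the members, fell from 30.16 and 29.24 TPM to 17.75 and 21.21 TPM. The change of Nol11 was -0.59 ± 0.24 (limma adjusted p = 0.0491), but -0.02 with ERCC scaling, where it did not pass. Wdr43 went from 57.1 and 55.9 TPM to 14.6 and 18.5 TPM, 3.41-fold lower (-1.72 ± 0.23, limma adjusted p = 1.72e-05; -1.15 with ERCC scaling). Wdr75 went from 29.0 and 31.4 TPM to 10.7 and 13.4 TPM (-1.27 ± 0.26), and Heatr1 from 35.6 and 36.7 TPM to 19.7 and 22.0 TPM (-0.77 ± 0.22). Utp15 did not pass, at 24.3 and 23.7 TPM against 15.9 and 19.5 TPM (-0.43 ± 0.25). Among later joining proteins, Utp20, a very large scaffold, went from 21.7 and 22.1 TPM to 6.24 and 8.07 TPM (-1.50 ± 0.29). Tsr1, which caps the maturing subunit, went from 29.2 and 27.2 TPM to 10.6 and 12.7 TPM (-1.21 ± 0.26), and Nop14 from 47.6 and 47.2 TPM to 26.6 and 33.2 TPM (-0.66 ± 0.21). The GTPase Bms1 was at 50.0 and 46.2 TPM against 36.7 and 41.9 TPM and did not pass. Rrp12, which helps to export the subunits, was the exception in direction, with both Tet2 KO libraries (21.7 and 26.7 TPM) above both WT libraries (21.0 and 20.1 TPM). It did not pass (0.22 ± 0.24), but did with ERCC scaling (0.79). On that scale Wdr43, Wdr75, Utp20 and Tsr1 still fell and Nop14 and Heatr1 did not.

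Among 8 proteins of large subunit assembly, 6 fell and 1 rose, beside 26.7% and 22.1% of all tested genes. Nop16 went from 29.96 and 30.5 TPM to 9.63 and 14.5 TPM, 2.51-fold lower (-1.28 ± 0.28, limma adjusted p = 0.00167). The 3 proteins of the PeBoW complex, which is needed to process the large subunit rRNA, all fell. Wdr12 went from 9.53 and 9.51 TPM to 4.15 and 4.74 TPM (-0.95 ± 0.31), Bop1 from 54.1 and 53.7 TPM to 34.2 and 33.9 TPM (-0.65 ± 0.20) and Pes1 from 75.6 and 77.2 TPM to 52.6 and 55.3 TPM (-0.49 ± 0.19). With ERCC scaling none of these 3 passed, and Pes1 was at 0.09. Nop2, an rRNA cytosine methyltransferase, went from 43.7 and 43.8 TPM to 25.1 and 28.5 TPM (-0.69 ± 0.21), and Noc2l, which also binds histone tails, from 96.1 and 87.3 TPM to 52.1 and 55.3 TPM (-0.76 ± 0.19). With ERCC scaling neither Nop2 nor Noc2l passed (-0.11 and -0.17), while Nop16 still fell (-0.72, limma adjusted p = 0.0488). Ebna1bp2 did not pass (-0.23 ± 0.22, or 0.35 with ERCC scaling). Rrp1b rose, from 11.8 and 12.6 TPM to 18.8 and 25.0 TPM, 1.80-fold higher (0.78 ± 0.26, adjusted p = 0.0208; 1.34 with ERCC scaling). Its groups did not overlap, but its call was lost without limma's trend and robust estimation and without the filter.

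**Figure D3:**
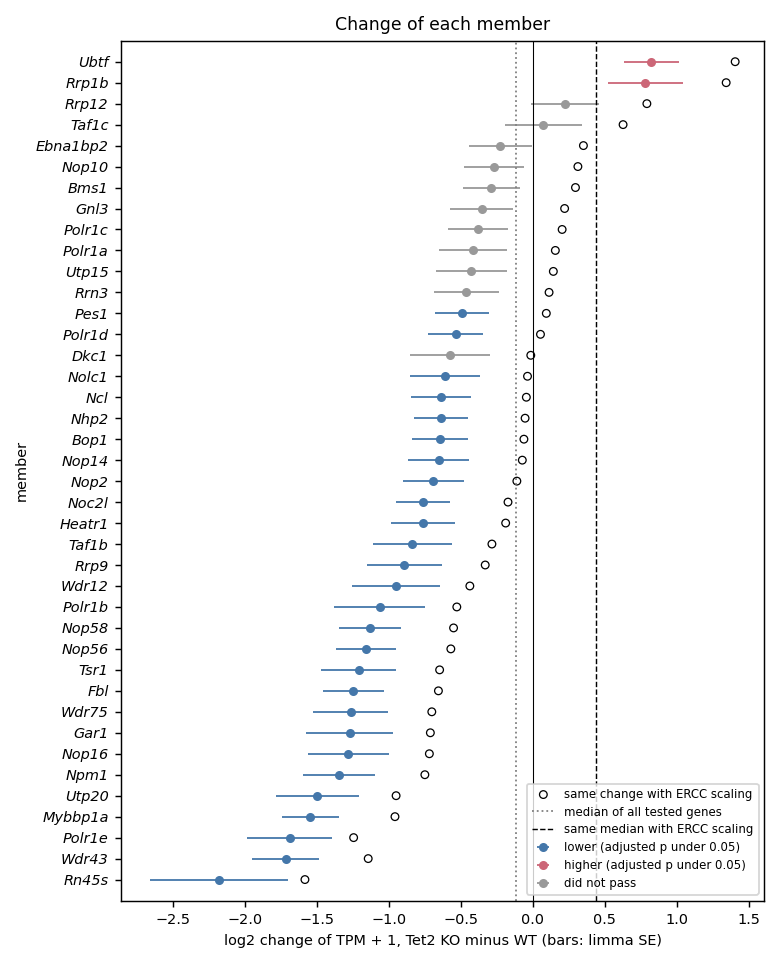
Filled points give the log2 change of TPM + 1 of each of the 40 members with its limma standard error, in blue where lower, red where higher and grey where the test was not passed; open circles give the same change after ERCC scaling, and vertical lines the median of all tested genes on each scale (-0.12 and 0.43). Rn45s is lowest at -2.18 and Ubtf highest at 0.82, and most members lie left of the median line of their scale.

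The Tet2 KO libraries differed from each other in the same direction for Rn45s and for nearly all factors. Library 2 was above library 1 for Rn45s (2984 against 1342 TPM) and for 37 of 39 factors, beside 65.2% of all tested genes. This is a comparison of 2 libraries with no replicate. The ratio of library 2 to library 1 had a median of 1.23 over the factors, against 1.08 over all tested genes, and ran from 0.898 for Taf1b to 1.65 for Gar1. Rn45s, at 2.22, lay above every factor, and 1.57% of all tested genes had a ratio at least as high. Bop1 (0.991) was the other factor below 1, and Polr1e (1.01) was nearly equal. Proliferation genes moved the same way between these libraries, with 21 of 21 higher in library 2, whereas 0 of 10 neutrophil genes were. The part of these cell-state differences in the Rn45s ratio was not tested.

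**Figure D4:**
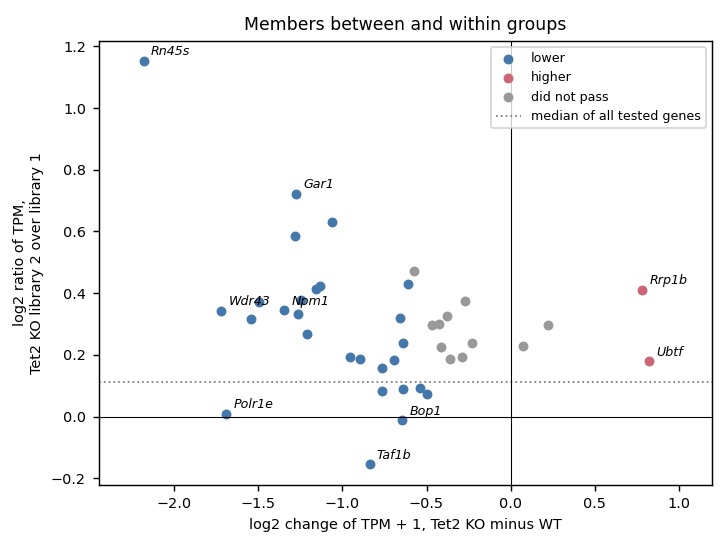
Each point is a member: the x axis gives its log2 change between groups and the y axis the log2 ratio of Tet2 KO library 2 to library 1, with the dotted line at the median ratio of all tested genes (1.08-fold). All members but Taf1b and Bop1 lie above 0 on the y axis, and Rn45s stands apart in both directions; both axes use the Tet2 KO libraries, so they are not independent.

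Relative to the factors, Rn45s was also lower. Its level was 3.49 and 3.41 times the summed factor level in WT, and 1.03 and 1.90 times in Tet2 KO. Against the summed TPM of Fbl, Nop56 and Nop58 of the box C/D snoRNP, without Nhp2l1, it went from 24.7 and 24.1 times to 9.59 and 16.2 times. Against PeBoW it went from 66.3 and 63.7 times to 14.8 and 31.8 times. These ratios are within a library and do not change with ERCC or other scaling.

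In 6 further lists that cover the rest of the pathway, 66 of 179 tested genes fell and 2 rose, beside 26.7% and 22.1% of all tested genes. Their median change was -0.48, against -0.12 for all genes. With ERCC scaling 11 fell and 34 rose, beside 12.5% and 41.5% of all tested genes, with a median of 0.10 against 0.43 for all genes. Of 14 further snoRNP assembly proteins 7 fell and 0 rose, led by the ATPase Ruvbl2, at 62.0 and 62.4 TPM in WT versus 21.1 and 24.7 TPM in Tet2 KO (-1.41 ± 0.21). Of 48 other small subunit assembly genes 22 fell and 0 rose; the smallest p was that of Rcl1, a factor of early precursor cleavage, at 26.7 and 24.6 TPM against 6.22 and 8.12 TPM (-1.72 ± 0.29). Of 56 other large subunit genes 25 fell, led by the helicase Ddx24 (143.6 and 146.5 TPM against 47.9 and 49.4 TPM), and 1 rose, Tex10 (20.5 and 20.6 TPM against 44.8 and 39.1 TPM). Of 25 exosome and rRNA end-processing genes 9 fell and 0 rose; the RNase P and MRP protein Rpp40, with the smallest p, was near the detection limit in Tet2 KO (0.40 and 0.53 TPM, from 2.52 and 1.39 TPM).

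The other genes of the Pol I machinery differed from the processing factors in their counts. Of 15 tested, including the remaining subunits and Taf1a, Taf1d, Tbp and Ttf1, 0 fell and 1 rose, Sirt7, a nucleolar deacetylase linked to Pol I activity (62.2 and 63.1 TPM in WT, 104.1 and 94.4 TPM in Tet2 KO; 0.65 ± 0.19, limma adjusted p = 0.0110, but 0.0545 without trend and robust estimation and 0.139 without the filter). The median of the 15 was -0.24, or 0.34 with ERCC scaling. Both Tet2 KO libraries lay below both WT libraries in 8 and above them in 6, beside 48.7% and 38.4% of all tested genes. Polr2e and Znrd1 were lower and missed the threshold narrowly (limma adjusted p = 0.0517 and 0.0552). With both WT libraries as samples 5 of the 15 fell and 4 rose, beside 37.9% and 29.5% of all tested genes. Of 21 genes of RNA polymerase III, which makes the small rRNA of the large subunit, 3 fell and 0 rose, led by the TFIIIC subunit Gtf3c3 (-1.49 ± 0.30). Their median was -0.30, or 0.28 with ERCC scaling. Both Tet2 KO libraries lay below both WT libraries in 14 of the 21 and above them in 3, beside 48.7% and 38.4% of all tested genes. With both WT libraries as samples 10 of the 21 fell and 0 rose, beside 37.9% and 29.5%. For both lists, with the WT libraries averaged, the shares of all tested genes were 26.7% for falls and 22.1% for rises. Whether these lists differ from the processing factors was not tested.

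Myc and its relatives were read beside the factors because their products bind the E-box CACGTG. Binding near these genes was not measured here. Myc fell from 57.5 and 57.0 TPM in WT to 12.2 and 13.8 TPM in Tet2 KO, 4.40-fold (-2.06 ± 0.23, limma adjusted p = 2.73e-06; -1.49 with ERCC scaling). Mycl fell from 17.1 and 16.4 TPM to 1.45 and 2.52 TPM, and Mycn was at or under 0.12 TPM in each library. Max, the partner that all of them need, was at 147.6 and 148.0 TPM against 223.0 and 205.6 TPM and did not pass (adjusted p = 0.0510). Of the genes for Max partners that repress at E-boxes, Mnt, Mxi1, Mxd4 and Mxd1 rose and Mxd3 did not pass. Mnt went from 13.0 and 12.8 TPM to 54.3 and 51.3 TPM (1.95 ± 0.21), Mxi1 from 40.7 and 39.5 TPM to 107.3 and 108.2 TPM, Mxd4 from 26.8 and 24.1 TPM to 64.7 and 69.3 TPM and Mxd1 from 245.5 and 248.6 TPM to 559.6 and 415.2 TPM. In none of these 4 did the groups overlap. Both Tet2 KO libraries lay above both WT libraries in 38.4% of all tested genes. Mga and Mlxip rose as well (0.79 and 0.60), while the changes of Mxd3 and Mlx were 0.29 and 0.30, neither past the test. Of the 11 genes of this list that were tested, 6 rose and 2 fell, beside 22.1% and 26.7% of all tested genes. All 6 rises and both falls kept their call with ERCC scaling, but without the filter only that of Mxi1 remained.

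**Figure D5:**
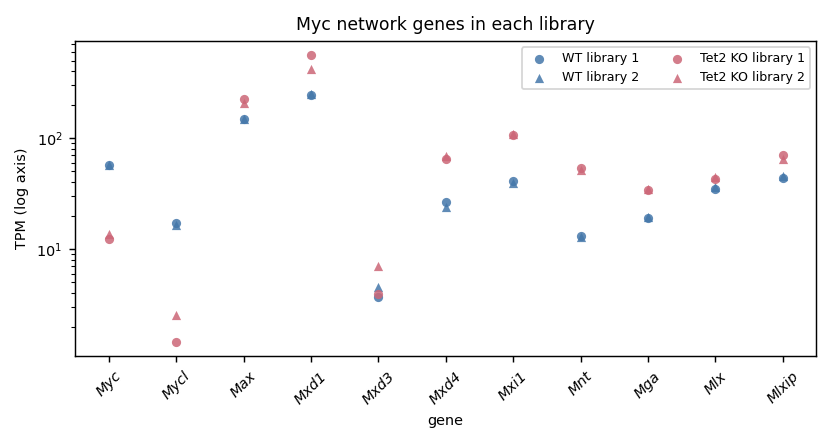
TPM on a log axis of the 11 Myc network genes that could be tested, in each library (WT blue, Tet2 KO red; circles library 1, triangles library 2). Myc and Mycl are lower in both Tet2 KO libraries, and Mnt, Mxi1, Mxd4 and Mxd1 are higher.

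Promoter windows of the members were searched for the E-box to show where these letters lie. RefSeq windows (GRCm38.p6, the same assembly as mm10), each 250 bases before to 50 after a transcription start, were found for 35 of the 40 members. CACGTG, which reads the same on both strands, was present for 7 of 35 members, 6 of them among the 23 that fell with a window. It was present in 11.96% of 9116 tested genes with a window, in 10.6% of tested genes that fell and in 14.4% of those that rose, and in 7.15% of all 32851 windows. Of the 6 that fell, 5 have their match within the first 50 bases after the start, and only Nop2 has it before. The 7 members are shown with up to 10 bases on each side on the gene's own strand, the E-box in capitals.
Wdr43: cccgggcgaaCACGTGgctgccgcgg
Mybbp1a: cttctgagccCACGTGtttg
Utp20: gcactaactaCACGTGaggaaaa
Tsr1: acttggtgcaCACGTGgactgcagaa
Nop2: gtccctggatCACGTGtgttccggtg
Pes1: ctaggcagggCACGTGcgggaggaag
Rrn3 (far match): gcgccaaggtCACGTGcacacgcctc
Rrn3 (near match): acgctctgctCACGTGggccgcgtcc
The sites of Wdr43 (chr17:71616222-71616247, plus strand), Mybbp1a (chr11:72441357-72441376, plus strand), Utp20 (chr10:88826765-88826787, minus strand) and Tsr1 (chr11:74898094-74898119, plus strand) start 18, 41, 38 and 25 bases after the start, counting the first transcribed base as 1. Those 4 genes had changes of -1.72, -1.55, -1.50 and -1.21. Pes1 (chr11:3963967-3963992, plus strand), with its E-box from base 3, changed by -0.49, and Nop2 (chr6:125131813-125131838, plus strand), with its E-box 60 bases before the start, by -0.69. Rrn3 (chr16:13780474-13780499 and chr16:13780641-13780666, plus strand) holds 2 matches, 215 and 48 bases before the start, and did not pass. Fallen genes without the letters in their window, such as Polr1e, Gar1 and Nop16, had changes of -1.69, -1.27 and -1.28. A match of letters is no evidence of binding.

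The window upstream of Nop2, the member that fell with its E-box before the start, is shown whole to place that site among its neighbours (chr6:125131633-125131882, plus strand, 67.6% G and C).
Nop2: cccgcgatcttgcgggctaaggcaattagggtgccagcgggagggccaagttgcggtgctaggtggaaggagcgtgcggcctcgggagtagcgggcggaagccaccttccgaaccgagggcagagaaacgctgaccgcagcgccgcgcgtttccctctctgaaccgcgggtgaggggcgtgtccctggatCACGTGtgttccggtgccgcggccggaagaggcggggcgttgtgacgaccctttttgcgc
The looser form CACGCG or CGCGTG, which covers both strands and shares no match with CACGTG at the same position, was present for 11 of 35 members (31.4%) and for 20.04% of tested genes with a window. The 2 members that rose, Ubtf and Rrp1b, have 8 windows for their several start sites, and 0 of these holds CACGTG.

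Proliferation genes were read in the same libraries. Of 21, 11 rose, 0 fell and 10 did not pass, beside 22.1% of all tested genes that rose and 26.7% that fell. Their median change was 0.60, or 1.19 with ERCC scaling. Mki67, a marker of cycling cells named outside the rule for named genes, went from 86.8 and 87.3 TPM in WT to 148.0 and 208.7 TPM in Tet2 KO (1.01 ± 0.23, limma adjusted p = 0.00294). Whether these genes differ from the ribosome factors was not tested.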

How the data were processed

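RNA was measured in 4 libraries, 2 WT and 2 Tet2 KO, grouped by title. The authors deposited TPM, each library summing to 1000000 over 24589 rows; per the submitters' processing notes the tools were STAR and RSEM and the build mm10. Versions and annotation: not given in the sources used here. All 92 ERCC rows were left out of tests. Genes needed 1 TPM in 2 libraries. The test was limma (3.58.1, R 4.3.3) applied to log2(TPM + 1) with trend and robust estimation, two-sided, Benjamini-Hochberg adjusted over 11919 genes; fold changes on this scale understate low genes. Depth was estimated from steps in low TPM values of single-transcript genes, of which 72.3% to 73.8% lay within 0.2 of whole reads. The variance between WT libraries was 1.10 times read sampling (robust, 1967 genes; 2.05 without robust estimation), and 5.74 times in Tet2 KO, so the WT mean counts as 1 sample and the spread, with 1 residual degree of freedom, comes from Tet2 KO. Members and lists were chosen with earlier results of these data known. Named genes are all members, Tet2, the gene with the smallest p in each direction of each further list, and the Myc network. The fit was tested on simulated data. Alternatives were ERCC scaling, rescaling without ERCC and Rn45s, quantile normalization, median centring, a pseudocount of 0.1, filters of 0 and 5 TPM, no trend or robust estimation, both WT libraries as samples, the replicate block, and each library left out. No sequence or position of Rn45s and no promoter of Rn45s, Rrp12, Bop1, Fbl or Npm1 was used.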

Additional observations from a re-analysis of the deposited data

How the results depend on the processing

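Of the 29 members called, Polr1e kept its call under all 14 alternatives, and 11, Polr1e included, kept it under all but the fit without a filter: Rn45s, Polr1e, Ubtf, Npm1, Mybbp1a, Fbl, Utp20, Wdr43, Wdr75, Tsr1 and Nop16. With ERCC scaling 4942 genes and 4 members were higher and 1492 genes and 10 members lower, 76.8% of calls were higher against 45.2%, and 17 members lost their call; changes then turned positive for Polr1a (0.16), Polr1c (0.20), Polr1d (0.052), Rrn3 (0.11), Gnl3 (0.22), Nop10 (0.31), Utp15 (0.14), Bms1 (0.30), Pes1 (0.093) and Ebna1bp2 (0.35). Without the filter 123 genes were higher and 295 lower, with 0 and 1 members, and Rn45s kept its change of -2.18 but not its call (adjusted p = 0.271); the cause was not tested. Without trend or robust estimation 1 member was higher and 20 were lower (Ncl, Nolc1, Polr1d, Pes1, Nhp2, Nop14 and Bop1 lost their call); with quantile normalization and with median centring 23 each were lower. With both WT libraries as samples 2 members were higher and 33 lower, beside 29.5% and 37.9% of all tested genes, and the same numbers followed with the replicate block (Rn45s adjusted p = 0.000978). The labels do not say that a number pairs libraries, and deviations of same-numbered libraries had r = -0.01 over genes. Leaving out a library gave 2651 to 4321 genes higher and 3192 to 5674 lower, the upper ends without Tet2 KO replicate 1 and 2, for which both WT libraries were samples and the lone Tet2 KO library was assumed to vary as they do; 26 to 36 members were then lower and 2 to 3 higher. Rn45s was at -1.61 without Tet2 KO replicate 1 and at -2.76 without replicate 2. Taf1c ran from -0.034 without Tet2 KO replicate 2 to 0.178 without replicate 1, and Mxd3 from -0.063 to 0.658. Low TPM limits Polr1e, Wdr12 and Rpp40 most.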

Other observations

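Of the rows looked at after the values were seen, Mir6236 and Lars2 had a pattern close to that of Rn45s. Rn45s was 3.95 and 4.22 times the level of Mir6236 in WT and 3.43 and 3.19 times in Tet2 KO. Lars2, the mitochondrial leucyl-tRNA synthetase, stood at 867 and 855 TPM in WT versus 156 and 356 TPM in Tet2 KO, with Rn45s at 10.6, 10.5, 8.61 and 8.38 times its level. Neither passed limma's test (adjusted p = 0.0939 and 0.125). Between the Tet2 KO libraries both differed by about as much as Rn45s, with library 2 at 2.39 and 2.29 times library 1. Whether these rows share reads with rRNA was not tested.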
